A study of Mus musculus with 2 samples.

Results

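The miR-183, miR-96 and miR-182 cluster was examined in small RNA libraries of mouse liver after short-term ethanol feeding. Its members were taken by name as the 5p and 3p mature microRNAs of the hairpins Mir183, Mir96 and Mir182, 6 of the 1915 microRNA names in the deposited tables. The cluster was selected on the levels themselves, as lower in the ethanol-fed library of both tables. That direction is therefore how the members were chosen and not a result. Female C57BL/6 mice of 8 to 10 weeks received the liquid Lieber-DeCarli control diet for 5 days. The ethanol-fed group then had the diet with 5% (v/v) ethanol for 10 days, and the pair-fed group an isocaloric control diet. A final gavage on day 16 delivered 6 g/kg ethanol to the former and dextrin-maltose of equal calories to the latter, 9 h before the livers were collected. The protocol thus gives 10 days on ethanol, whereas the design statement gives 16 days. All mice were wild type and shared the strain, sex and acclimatization.

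There were 2 tables, here called experiments 1 and 2, each with 1 pair-fed and 1 ethanol-fed library. The sample labels hold 1 sample per condition, and the animals or pools behind a library were not given in the sources used here. No spread between animals can be given. No test between conditions was run, since the members were chosen on both of the differences that the 2 experiments give, and each difference below is between 2 libraries. Experiment 1 lists whole reads for 484 microRNAs, with 4170601 reads on microRNAs with pair-feeding and 4311802 with ethanol. Experiment 2 lists reads per 1000000 reads on microRNAs (RPM) for 1915 microRNAs, and its low values rise in steps of 0.0925 and 0.0924 RPM. If a step is 1 read, these libraries held about 10812564 and 10820754 reads on microRNAs. Reads of experiment 2, and the intervals that rest on them, are therefore estimates. Levels in experiment 1 were scaled to RPM in the same way. The 2 tables were processed separately, so ratios of ethanol-fed to pair-fed levels were formed only within a table. Levels were set side by side across the tables only as a description. Intervals are 95% intervals for counting error only. They take each read as independent, and PCR copies were not told apart, so they can be too narrow. The labelled tissue was checked only for the presence of the hepatocyte microRNA miR-122-5p. It was at 2971 RPM with pair-feeding and 2210 RPM with ethanol in experiment 1, and at 182938 and 156660 RPM in experiment 2. With pair-feeding in experiment 1 it lay far below miR-192-5p (388161 RPM), miR-143-3p (96276 RPM) and miR-10a-5p (95953 RPM). The microRNA makeup thus differed widely between the experiments, and the cause was not tested.

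The 3 hairpins are transcribed together as a polycistron, a primary RNA that holds several microRNA hairpins. The cluster is best known from sensory organs, where it is abundant in photoreceptors and hair cells, and changes in the miR-96 seed cause progressive hearing loss in mice and humans. It is also induced in activated lymphocytes, where miR-182 represses the transcription factor gene *Foxo1*, and it is often raised in liver cancer. A microRNA finds its targets mainly through its seed, bases 2 to 8 from the 5′ end, which pairs with the 3′ UTR of messenger RNAs.

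In the RefSeq annotation of GRCm38.p6 all 3 hairpins lie on the minus strand of chromosome 6, within 3820 bp. Mir183 comes first in the direction of transcription (chr6:30169668-30169737), then Mir96 (chr6:30169446-30169551) after a gap of 116 bp, then Mir182 (chr6:30165918-30165992) after a further 3453 bp. In GENCODE vM21 no other gene overlaps them. They lie between *Nrf1*, 12459 bp beyond Mir182 and on the plus strand, and the noncoding RNA gene *Rncr4*, 3155 bp beyond Mir183 and also on the plus strand. The genome build named in the submitters' processing notes is mm8, and the tables themselves hold no coordinates. All 6 member names were matched to RefSeq mature sequences. They are shown 5′ to 3′ with the seed in capitals, because the seeds show how closely the 5p forms resemble each other.
mmu-miR-183-5p: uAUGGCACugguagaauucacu
mmu-miR-96-5p: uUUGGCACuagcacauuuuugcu
mmu-miR-182-5p: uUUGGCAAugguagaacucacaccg
mmu-miR-183-3p: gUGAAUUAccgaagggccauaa
mmu-miR-96-3p: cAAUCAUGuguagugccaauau
mmu-miR-182-3p: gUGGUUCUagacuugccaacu

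The 5p seeds are near-copies. Counted from 1 at the 5′ end, the miR-183-5p and miR-96-5p seeds differ by A2U, those of miR-96-5p and miR-182-5p by C8A, and those of miR-183-5p and miR-182-5p by both. Outside the seed miR-183-5p and miR-182-5p remain alike, with 18 of 22 positions identical over the whole length, whereas miR-96-5p matches miR-183-5p at 13 of 22 and miR-182-5p at 12 of 23. Full-length reads of the 3 can therefore be told apart. Among 1679 mature microRNAs of the reference, miR-1271-5p has the seed of miR-96-5p, and neither experiment has a row for it. miR-3475-5p has the seed of miR-96-3p and was listed at 0 in both libraries of experiment 2.

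Only the 5p forms had values above 0. The 3p forms have no row in experiment 1 and were listed at 0 in both libraries of experiment 2, where the lowest value above 0 was 0.92 RPM, or 10 steps, so that they can have had up to almost that level there. With pair-feeding in experiment 2, miR-182-5p stood at 136 times that lowest listed value, miR-183-5p at 56.8 times and miR-96-5p at 16.1 times. With ethanol in experiment 2 they stood at 46.6, 30.1 and 5.73 times, in the same order, so that the margin was smallest for miR-96-5p. The 5p arm was thus the prevailing arm of all 3 hairpins as far as the listing allows. All 3 measured members passed the minimum of 10 reads over both libraries of a table, in both experiments.

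mmu-miR-182-5p, the most abundant member, had 34472 reads or 8265 RPM (8179 to 8353) with pair-feeding in experiment 1 and 18123 reads or 4203 RPM (4142 to 4265) with ethanol. In experiment 2 it was at 125 RPM (119 to 132) with pair-feeding and 42.9 RPM (39.2 to 47.0) with ethanol. It was 1.97-fold lower (1.93 to 2.002) in the ethanol-fed library of experiment 1 and 2.92-fold lower (2.62 to 3.25) in that of experiment 2. The counting intervals of the 2 libraries did not overlap in either experiment.

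mmu-miR-183-5p, which lies first in the polycistron, had 670 reads or 161 RPM (149 to 173) with pair-feeding and 332 reads or 77.0 RPM (69.1 to 85.7) with ethanol in experiment 1. Its values in experiment 2 were 52.3 RPM (48.1 to 56.7) and 27.7 RPM (24.8 to 31.0). The ethanol-fed library was 2.09-fold lower (1.83 to 2.39) in experiment 1 and 1.88-fold lower (1.64 to 2.18) in experiment 2. These libraries too lay apart by more than the counting error.

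mmu-miR-96-5p, the scarcest member, rests on few reads. It had 45 reads or 10.8 RPM (8.06 to 14.4) with pair-feeding and 29 reads or 6.73 RPM (4.68 to 9.66) with ethanol in experiment 1, and the 2 intervals overlap. The log2 ratio of -0.66 had an interval from -1.41 to 0.02, so that this difference was not detectable at this depth. In experiment 2 miR-96-5p was at 14.8 RPM (12.7 to 17.3) and 5.27 RPM (4.07 to 6.82), a 2.81-fold lower level (2.06 to 3.87) with intervals that lay apart.

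**Figure D1:**
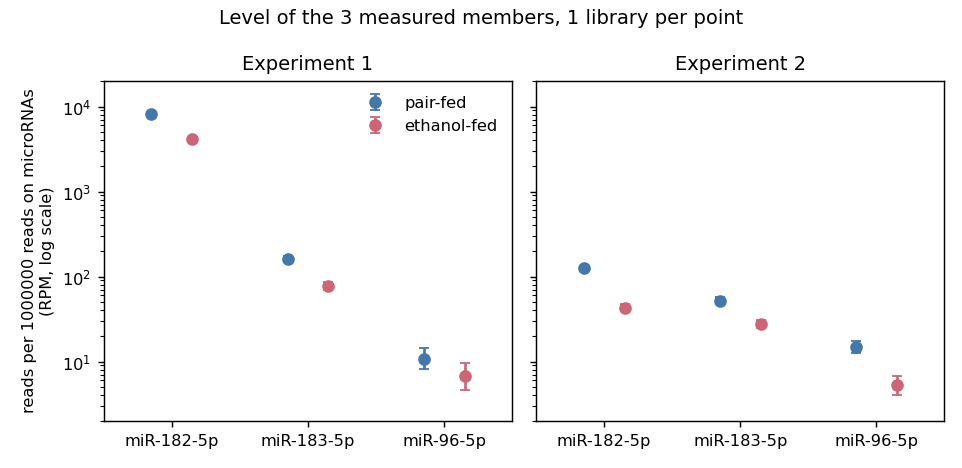
Level of miR-182-5p, miR-183-5p and miR-96-5p in RPM (log scale) in each library, with pair-fed libraries in blue and ethanol-fed libraries in red. Each point is 1 library and bars are 95% Wilson intervals for counting error; the ethanol-fed point is below the pair-fed point in all 6 pairs, and only the pair of miR-96-5p in experiment 1 has overlapping bars.

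The order of the levels was the same in all 4 libraries, with miR-182-5p above miR-183-5p and miR-183-5p above miR-96-5p, and neighbours in this order differed by more than the counting error. Among all microRNAs miR-182-5p ranked 17 with pair-feeding and 21 with ethanol in experiment 1, and 115 and 154 in experiment 2. miR-183-5p ranked 76 and 92 in experiment 1 and 149 and 180 in experiment 2. miR-96-5p ranked 166 and 186, and 221 and 286. The cluster was therefore a minor part of the liver microRNAs, and summed it took 0.844% (0.835% to 0.853%) of the reads with pair-feeding in experiment 1 and 0.0192% (0.0184% to 0.0201%) in experiment 2. The corresponding shares in the ethanol-fed libraries were 0.429% (0.423% to 0.435%) and 0.00759% (0.00709% to 0.00812%).

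The share of the 3 members within the cluster differed between the experiments. In experiment 1 miR-182-5p supplied 98.0% (97.8% to 98.1%) of the cluster's reads with pair-feeding and 98.0% (97.8% to 98.2%) with ethanol. In experiment 2 it supplied 65.1% (63.0% to 67.1%) and 56.5% (53.1% to 59.9%). miR-183-5p made up 1.90% (1.77% to 2.05%) and 1.80% (1.61% to 1.998%) in experiment 1, against 27.2% (25.3% to 29.1%) and 36.5% (33.3% to 39.9%) in experiment 2. miR-96-5p stayed under 1% in experiment 1, with 0.128% and 0.157%, and reached 7.70% and 6.94% in experiment 2. Members of a polycistron thus stood in ratios that differed far more between the experiments than between the libraries of an experiment.

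**Figure D2:**
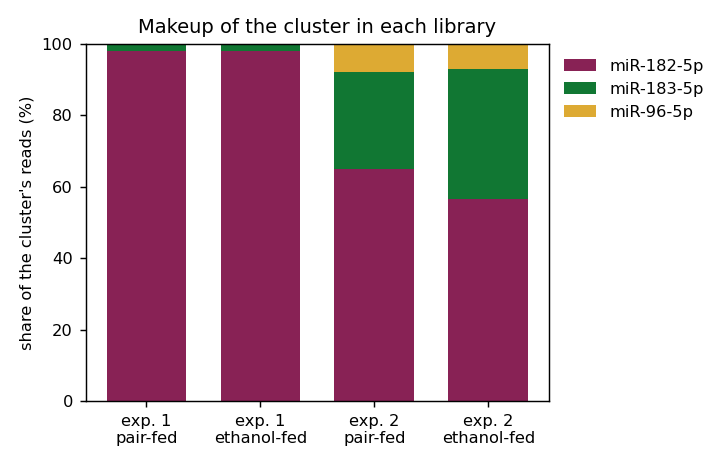
Share of the cluster's reads (%) that came from miR-182-5p, miR-183-5p and miR-96-5p in each of the 4 libraries. In both libraries of experiment 1 the bar is almost wholly miR-182-5p (98.0%), whereas in experiment 2 miR-183-5p takes 27.2% with pair-feeding and 36.5% with ethanol.

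The difference came mainly from miR-182-5p. Its level with pair-feeding was 66.1 times as high in experiment 1 as in experiment 2, the highest such ratio of the 277 microRNAs above 0 in both pair-fed libraries, ahead of miR-10b-5p with 53.8 times. On the log2 scale it was 6.05, while the median of the 277 was -1.22 and the interquartile range ran from -3.16 to 0.46. miR-183-5p was 3.07 times higher in experiment 1, at rank 40 of 277, and miR-96-5p stood at 0.73 times its level in experiment 2, at rank 109. Between the ethanol-fed libraries miR-182-5p again had the highest ratio, 98.0 times, of 275 microRNAs. These ratios set levels from separately processed tables side by side, and the processing, the library preparation and the animals cannot be told apart in them.

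**Figure D3:**
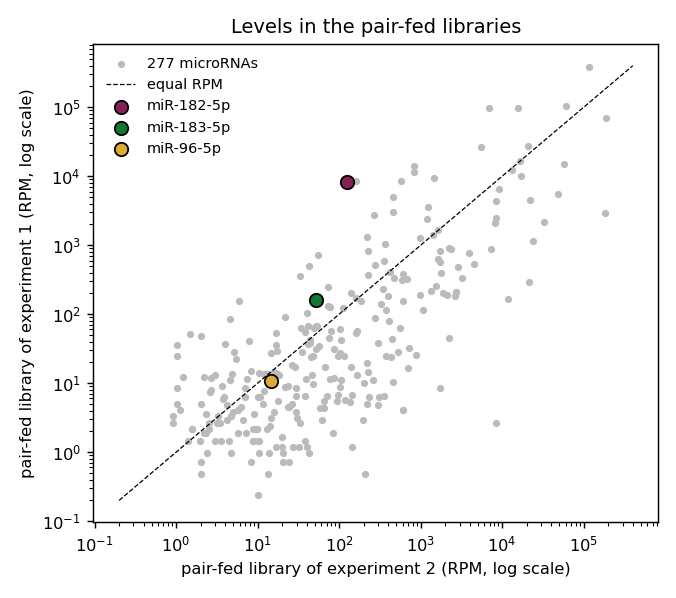
Level in the pair-fed library of experiment 1 against that of experiment 2, both in RPM on log scales, for 277 microRNAs (gray) with the 3 members in color and a dashed line of equal RPM. miR-182-5p lies farthest above the line (8265 against 125 RPM), while miR-96-5p lies close to it (10.8 against 14.8 RPM).

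Within an experiment the members could be compared with each other directly, since their direction was fixed by the choice but not their relative size. In experiment 1 the ratio of miR-182-5p to miR-183-5p was 51.5 with pair-feeding and 54.6 with ethanol, a log2 difference of 0.09 with an interval from -0.11 to 0.28. A difference between the 2 microRNAs was thus not detectable beyond the counting error. In experiment 2 the same ratio was 2.39 with pair-feeding and 1.55 with ethanol, a log2 difference of -0.63 (-0.89 to -0.37), so that miR-182-5p was lowered more than miR-183-5p. No such difference was detectable for miR-96-5p there, as the ratios of miR-182-5p to miR-96-5p were 8.45 and 8.14, a log2 difference of -0.05 (-0.53 to 0.43). The ratio of miR-183-5p to miR-96-5p was 3.53 with pair-feeding and 5.26 with ethanol, a log2 difference of 0.58 (0.08 to 1.08). In experiment 1 the ratios to miR-96-5p had intervals that include 0, from -0.999 to 0.43 for miR-182-5p and from -1.11 to 0.38 for miR-183-5p. With 1 library per condition, these intervals do not cover the variation between animals.

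The summed cluster was at 8437 RPM with pair-feeding and 4287 RPM with ethanol in experiment 1, 1.97-fold lower (1.93 to 2.004). In experiment 2 it was at 192 and 75.9 RPM, 2.53-fold lower (2.34 to 2.75). The sum of experiment 1 is in effect the value of miR-182-5p.

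As the members were picked for being lower, their place among all microRNAs is given as a description. A log2 ratio below 0 was found for 51.3% of the 302 microRNAs tested in experiment 1 and for 49.7% of the 469 tested in experiment 2, where tested means at least 10 reads in the 2 libraries together. Of the 283 tested in both, 65 or 23% were lower in both. With a limit of 2-fold, miR-183-5p was the member past it in experiment 1, at a background of 12.9%, and miR-182-5p and miR-96-5p were past it in experiment 2, at a background of 15.1%. At least 2-fold lower in both experiments were 5 of 283 microRNAs (1.77%), and no member was among them. When the total did not count the top microRNA, miR-182-5p was past that limit in both, with log2 ratios of -1.01 and -1.54. Under that total 43 of the 302 and 71 of the 469 microRNAs were past it. The share past it in both was not counted. In experiment 1 other scalings left miR-182-5p short of it, at -0.93 for unscaled reads and -0.94 for median-of-ratios size factors. The median log2 ratio of the 3 members was -0.98 in experiment 1 and -1.47 in experiment 2, beside -0.01 and 0.00 over all tested microRNAs. The log2 ratios here include a pseudocount of 1 read per library, which slightly understates differences of scarce microRNAs with reads in both libraries. A 0 listed in experiment 2 can stand for up to almost 10 reads, so a ratio that rests on it can be overstated. With each 0 set to the lowest listed value, 49 rather than 71 of the 469 were at least 2-fold lower there.

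At or below the least lowered of the 3 members in each experiment were 11 of the 283 (3.89%), the 3 members and 8 others. Of these 8, 7 had under 100 reads in both libraries of experiment 1 and 5 were listed at 0 in the ethanol-fed library of experiment 2, so that their ratios are uncertain. A library with 100 reads or more in each experiment was a condition that 128 microRNAs met and miR-96-5p did not. Of these 128, only miR-182-5p and miR-183-5p themselves lay at or below the less lowered of the 2 in each experiment. In both counts the limit was set by the members, which were chosen as lower. Their own place in the counts was thus fixed beforehand, and the counts are a description.

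**Figure D4:**
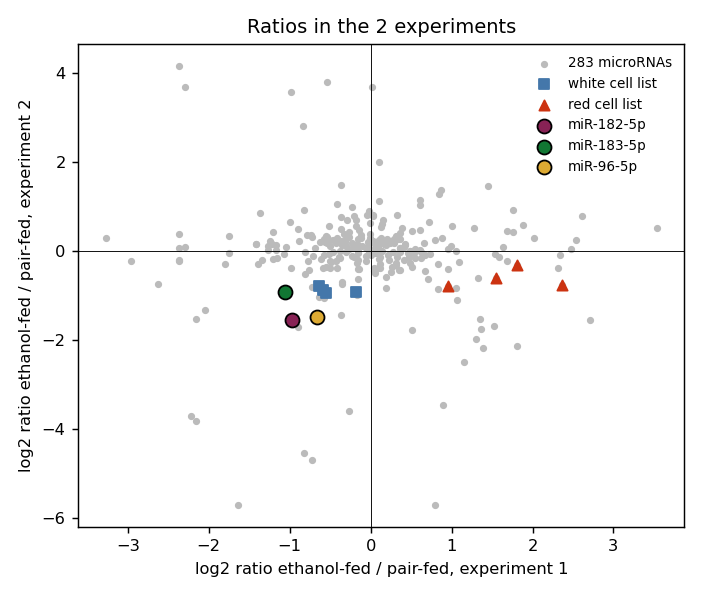
Log2 ratio of the ethanol-fed to the pair-fed level in experiment 2 (vertical axis) against experiment 1 (horizontal axis) for the 283 microRNAs tested in both (gray), with the 3 members, the white cell list (squares) and the red cell list (triangles). The members lie at the lower left, where the white cell list also lies, while the red cell list lies to the right of 0 in experiment 1 and below 0 in experiment 2.

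The 5 microRNAs whose pair of log2 ratios lay nearest to that of miR-182-5p, of 127 candidates under the same condition of 100 reads, included miR-183-5p at rank 3. Nearest was miR-342-3p, a microRNA of lymphocytes and other blood cells, with log2 ratios of -0.63 and -1.03 in experiments 1 and 2. miR-19a-3p of the miR-17-92 cluster followed with -0.58 and -1.06. miR-150-5p, a microRNA of mature lymphocytes, had -0.59 and -0.87. miR-146a-5p, which is induced by NF-κB signaling, had -0.72 and -0.80. All 4 of these were less lowered than miR-182-5p in both experiments. The likeness rests on 2 ratios from 4 libraries.

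Markers of other cell types were set beside the cluster. A lower level in bulk liver can come from fewer cells of a type or from less RNA per cell, which cannot be told apart. The white cell list held miR-223-3p, miR-142a-3p, miR-142a-5p, miR-150-5p and miR-155-5p. It was lower in the ethanol-fed library in 4 of 4 tested members in experiment 1 and in 5 of 5 in experiment 2. miR-155-5p, too scarce to be tested in experiment 1, was at 0 with pair-feeding and at 0.93 RPM with ethanol there. Median log2 ratios of the list were -0.57 and -0.87. Its summed level was 404 RPM with pair-feeding and 336 RPM with ethanol in experiment 1, and 886 and 473 RPM in experiment 2. miR-142a-5p, the most abundant of the list, was at 308 and 272 RPM in experiment 1 and at 583 and 309 RPM in experiment 2. The part of white cells in the cluster's values was not tested.

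The red cell list (miR-486a-5p, both miR-144 arms and miR-451a) was higher with ethanol in 4 of 4 members in experiment 1. Its median log2 ratio was 1.68 and its summed level 11559 RPM with pair-feeding and 33915 RPM with ethanol. In experiment 2 it was lower in 4 of 4, with a median of -0.68 and 1826 and 1152 RPM. The red cell list thus lay opposite to the cluster in experiment 1 and on the same side in experiment 2, and the part of red cells in the cluster's values was not tested.

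The epithelium list of miR-200 family members (miR-429-3p, miR-141-3p and the 3p forms of miR-200a, miR-200b and miR-200c), which like the cluster is found in epithelial cells, was lower in 2 and higher in 2 of 4 tested members in experiment 1, with a median log2 ratio of 0.00. In experiment 2 it was higher in 5 of 5, with a median of 0.81 and a summed level of 519 and 887 RPM, opposite to the cluster. The hepatocyte list (miR-122-5p, miR-802-5p, miR-192-5p and miR-194-5p) had medians of 0.01 and -0.01 and was split 2 and 2 in both experiments. Lower in both were miR-122-5p (log2 ratios -0.43 and -0.22) and miR-192-5p (-0.06 and -0.10), while miR-802-5p and miR-194-5p were higher in both. The summed hepatocyte list was at 392402 RPM with pair-feeding and 376642 RPM with ethanol in experiment 1. In experiment 2 that sum was 324136 and 291554 RPM.

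**Figure D5:**
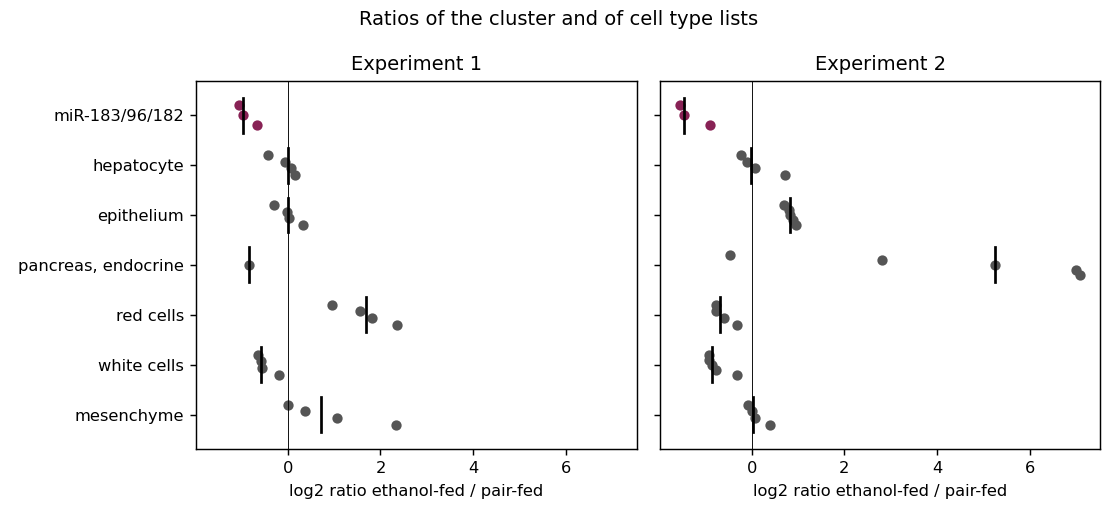
Log2 ratio of the ethanol-fed to the pair-fed level for the 3 cluster members and for each tested microRNA of 6 cell type lists, in experiment 1 (left) and experiment 2 (right), with a black bar at the median of each row. The cluster and the white cell list lie below 0 in both experiments, the hepatocyte list is centered near 0, and the highest pancreas values of experiment 2 rest on a pair-fed value listed at 0.

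For context on possible targets, the 3′ UTRs of GENCODE vM21 (GRCm38, the longest 3′ UTR of a protein-coding transcript per gene) were searched on the messenger strand for the complement of each 5p seed. The motifs were GTGCCAT for miR-183-5p, GTGCCAA for miR-96-5p and TTGCCAA for miR-182-5p. They were found in 8.82%, 7.93% and 10.9% of 21020 3′ UTRs, and any of the 3 in 23.1%. A match is a description of the sequence, and messenger RNA levels were not analysed here. Among 4 genes taken from general knowledge as targets of the cluster, *Foxo1*, a transcription factor that drives glucose production in hepatocytes, had 1 match to each of the 3 motifs in 6240 bases. Its relative *Foxo3* had 2 matches to miR-182-5p in 4490 bases. *Mitf*, a regulator of pigment cells, had 1 match to miR-96-5p and 1 to miR-182-5p. *Adcy6*, an adenylyl cyclase, had 3 matches to miR-96-5p, 2 to miR-182-5p and 1 to miR-183-5p. Of the 3′ UTRs within 10% of the length of that of *Foxo1*, 33.7%, 30.0% and 38.2% held the motif of miR-183-5p, miR-96-5p and miR-182-5p. For miR-182-5p the share was 31.5% at the length of *Foxo3*, 23.5% at that of *Mitf* and 17.6% at that of *Adcy6*. The share for miR-96-5p was 16.2% at the length of *Mitf* and 12.7% at that of *Adcy6*, and for miR-183-5p it was 14.2% at that of *Adcy6*. As the 4 genes were chosen as known targets, matches in them were to be anticipated and are not a result.

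Of 9 genes that the study followed for lipid metabolism, ethanol oxidation or tRNA cleavage, *Fasn*, the fatty acid synthase gene, had 1 match, to miR-183-5p, in 2008 bases. That motif occurred in 12.6% of the 3′ UTRs within 10% of the length of that of *Fasn*. The other 8, which were *Sirt1*, *Ang*, *Cyp2e1*, *Srebf1*, *Acaca*, *Lpin1*, *Ppara* and *Cpt1a*, had no match to the 3 motifs in these windows. In 3′ UTRs within 10% of the length of that of *Sirt1*, the motifs occurred in 10.8%, 8.05% and 10.1%. The sites of *Foxo1*, of *Foxo3* and of *Fasn* are shown with the motif in capitals, to set the pairing bases beside the seeds above. The *Foxo1* sites lie on the plus strand at chr3:52347200-52347222, chr3:52347226-52347248 and chr3:52350867-52350889. The *Foxo3* sites lie on the minus strand at chr10:42186251-42186273 and chr10:42185432-42185454, and the *Fasn* site on the minus strand at chr11:120806953-120806975.
Foxo1, miR-183-5p: ctgtagataaggactGTGCCATt
Foxo1, miR-96-5p: aatcattacaatgaaGTGCCAAa
Foxo1, miR-182-5p: gcagtgtgtttgctcTTGCCAAa
Foxo3, miR-182-5p: tacagagaaaaccctTTGCCAAa
Foxo3, miR-182-5p: ctcagcctctgcccgTTGCCAAa
Fasn, miR-183-5p: gactccttggagggtGTGCCATt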

How the data were processed

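Small RNA was size-selected by gel electrophoresis from total liver RNA, amplified by RT-PCR and sequenced. For experiment 1 the authors deposited raw counts of reads per mature microRNA, and for experiment 2 the authors deposited RPM, in which the lowest value above 0 is 0.92 RPM. The aligner, microRNA annotation and filters are not given in the sources used here. The authors' fold changes and p-values of experiment 2 were not used. Columns were assigned to the conditions by name.

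RPM of experiment 1 and log2 ratios of the ethanol-fed to the pair-fed library (pseudocount 1 read, minimum 10 reads in the 2 libraries together) were computed in Python 3.11.15 with numpy 2.4.6, pandas 2.3.3 and scipy 1.17.1. In experiment 2 a read was taken as the step found in 95.3% of 296 and 95.5% of 291 values under 60 RPM, within rounding to 2 decimals, so that its reads are estimates. Levels and shares carry 95% Wilson intervals, ratios exact conditional binomial intervals, and differences between members conditional odds ratio intervals. With 1 library per condition no count model was fitted and no p-value was computed. The ratios were tested on simulated data. Figures were drawn with matplotlib 3.10.9.

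Members and lists were chosen with earlier results of these data known. The microRNAs named were the members, those with the same seed, the 5 nearest in pattern to miR-182-5p, the list members (hepatocyte, epithelium, pancreas and neuroendocrine, red cells, white cells, mesenchyme) and others named after their values were seen. Alternatives were other scalings, pseudocounts, minimums and readings of zeros.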

Additional observations from a re-analysis of the deposited data

Results flagged for a closer look

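The red cell list was singled out because all of its members were higher in the ethanol-fed library of experiment 1 (median log2 ratio 1.68) and all were lower in that of experiment 2 (-0.68). miR-451a went from 25.7 to 133 RPM in experiment 1 and from 873 to 514 RPM in experiment 2. The difference between the experiments was not tested, with 1 library per condition in each.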

How the results depend on the processing

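All 24 log2 ratios of the 3 members under other scalings, a pseudocount of 0.1 read and, in experiment 2, zeros set to the lowest listed value stayed below 0, from -1.56 to -0.62, and 21 stayed within the counting interval. The other 3 were those of miR-182-5p in experiment 1, where the main value was -0.98, with -0.93 for unscaled reads, -0.94 for median-of-ratios size factors and -1.01 for a total without the most abundant microRNA, which puts it past 2-fold. The scalings shifted the median of all microRNAs by at most 0.048. Without the most abundant microRNA in the total, the summed cluster took 1.38% of the reads with pair-feeding and 0.684% with ethanol in experiment 1, and 0.0236% and 0.00934% in experiment 2, by construction. The number of microRNAs at least 2-fold lower in experiment 1 was 39, 102 with no minimum and 9 with a minimum of 100 reads, and in experiment 2 it was 71, 24 with a minimum of 100 reads and 49 where each 0 was replaced by the smallest value listed. Lower in both experiments were 65 of 283, and 36 of 148 with a minimum of 100 reads. The minimums change the number of microRNAs tested, and the zeros change how an unlisted level is read. No paired fit over the 2 experiments was run, because it would rest on 2 differences on which the members were themselves chosen. miR-96-5p, with 45 and 29 reads in experiment 1, was limited by depth. The 3p forms, listed at 0 in experiment 2, were limited by its lowest listed value of 0.92 RPM.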

Other observations

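The 8 microRNAs at or below the least lowered member of the cluster in both experiments, named after their values were seen, were both arms of miR-1948 and the microRNAs miR-136-5p, miR-379-5p, miR-485-5p, miR-341-3p, miR-342-5p and miR-383-5p. miR-379-5p, 1 of those above 0 in every library, had log2 ratios of -0.90 and -1.71 in experiments 1 and 2. Its pair-fed levels were 1.92 and 83.0 RPM, so that the ratio of experiment 1 rests on few reads.

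The mesenchyme list held miR-143-3p, miR-145a-5p, miR-199a-3p and miR-214-3p. It was higher in the ethanol-fed library in 3 of 4 members in experiment 1 (median log2 ratio 0.71) and in 2 of 4 in experiment 2 (0.03). The summed list went otherwise, at 96518 RPM with pair-feeding and 96073 RPM with ethanol in experiment 1. In experiment 2 the sum was 18978 and 24067 RPM. miR-143-3p made up most of it in every library. Of the pancreas and neuroendocrine list (miR-375-3p, miR-217-5p, miR-216a-5p, miR-216b-5p and miR-7a-5p), only miR-375-3p was tested in experiment 1, with a log2 ratio of -0.84. In experiment 2, 4 of 5 were higher, 2 of them from a pair-fed value listed at 0, while the summed list was lower, at 5116 RPM with pair-feeding and 3821 RPM with ethanol, of which miR-7a-5p made up 5110 and 3707 RPM.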
